A study of Ditylenchus destructor and Heterodera glycines and Meloidogyne incognita with 162 samples.

Results

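Chromosome 1 of the potato rot nematode Ditylenchus destructor carried 3126 of the 15798 genes in the count table, and these genes were selected because the table places them on the sequence named Dd_chr1. Chromosomes 2, 3 and 4 held 3804, 3411 and 5418 genes, and a further 39 genes lay on scaffolds, which took at most 0.0814% of the counts of any library. Chromosome 1 therefore held 19.8% of the genes on the 4 chromosomes. The gene IDs matched 0 entries of the RefSeq table at hand, so genes are given by the ID, start and end in the count table, whose genome build is not given in the sources used here. The 54 libraries came from single embryos or larvae of D. destructor reared on sweet potato tubers, with 4 libraries at the Zygote stage and 5 at each of the other 10 stages, which were embryos of 2, 4 and 8 cells (2-cell, 4-cell, 8-cell), embryos of 24-44 and of 64-78 cells, the elongating embryos called Comma, then 1.5-fold, then 2-fold, and lastly Moving embryos and L1 larvae. All came from strain Dd1115, and the libraries kept were chosen from a larger number of embryos sampled per stage.

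D. destructor is a migratory endoparasite that feeds inside tubers and roots. In nematode embryos, as in other animals, the zygote starts with RNA deposited by the mother, and transcription from the embryo's own genes takes over as cleavage proceeds. The comma and fold stages are named after the bending and lengthening body, a moving embryo has working muscle, and L1 is the first larval stage. In Caenorhabditis elegans the centres of the autosomes hold many conserved, broadly expressed genes, while the arms hold more of the fast-evolving gene families. The files hold no such map for D. destructor, so chromosome 1 was described in 20 bins of 1 Mb, numbered from its first base, and each gene was placed by its start.

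The gene content of chromosome 1 was close to that of the other chromosomes. Its genes spanned positions 940 to 19663815 at 159 genes per Mb, against 147 to 151 genes per Mb on the other 3 chromosomes. The median gene span, introns included, was 3181 bp, against 3383 to 3617 bp on the others, and 50.4% of its genes lay on the plus strand. Only 2 of the 3126 genes had no count in any library, 3032 reached a mean of 1 CPM (CPM is the count per 1e6 counts of the library) at some stage, and 2378 reached 10 CPM. The totals per library ranged between 300110 and 10641389 counts, and no pair of replicates was near-identical, since chi-square divided by its degrees of freedom was 11.9 or more in each of 106 pairs. These reads carry no molecular identifiers, so depth covers counting error only, and a level per embryo cannot separate RNA per cell from the number of cells.

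The share of the counts that fell on chromosome 1 was highest in the first embryos and in Comma embryos, and lowest in 2-fold embryos. In stage order the mean share was 20.95%, 21.6%, 18.9%, 18.04%, 17.6%, 17.4%, 20.95%, 16.4%, 15.2%, 18.4% and 19.01% (n = 4 for Zygote and 5 for each other stage). The SD between libraries of 1 stage was between 0.280 and 1.81 percentage points at 10 stages, and 4.68 percentage points at the Comma stage. At the Comma stage the 5 libraries had 16.4%, 16.6%, 20.99%, 23.5% and 27.3%, so the high Comma mean rested on 3 of its 5 libraries. By the alignment rates that the study tabulated, those 3 libraries (replicates 3, 4 and 5) each aligned less well than the other Comma libraries. A high share and a low alignment rate thus cannot be told apart at this stage.

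**Figure D1:**
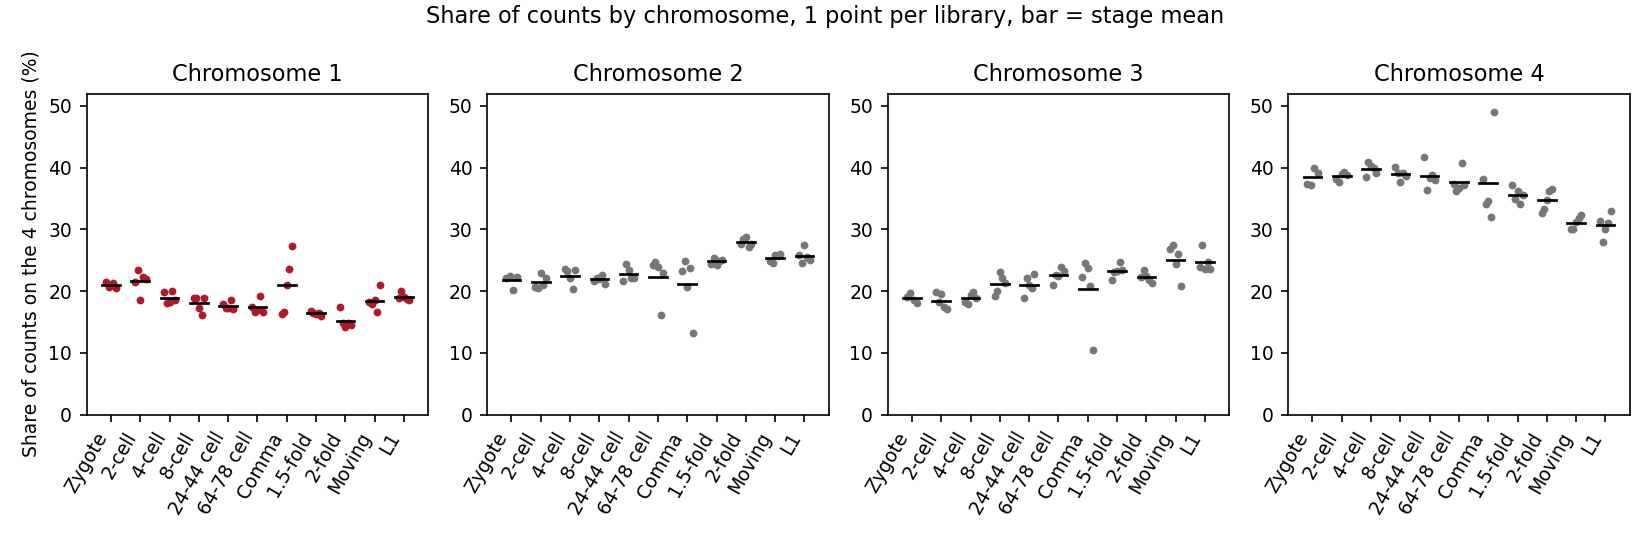
Share of the counts on the 4 named chromosomes (y axis, %) by stage (x axis, in developmental order), with 1 point per library and a black bar at the stage mean. On chromosome 1 (left, red) the means lay between 15.2% in 2-fold embryos and 21.6% in 2-cell embryos, and the Comma libraries spread between 16.4% and 27.3%. The grey panels give chromosomes 2 to 4 on the same axis.

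The 24-44 cell libraries had chromosome 1 shares of 17.9%, 17.2%, 17.2%, 18.5% and 17.2%, against 21.4%, 20.6%, 21.3% and 20.4% in the Zygote libraries. The stages did not overlap, and the mean share was 3.34 percentage points lower in 24-44 cell embryos (exact permutation test over libraries, 2-sided, p = 0.00794, adjusted p = 0.0212 over 16 tests of 4 chromosomes). This p is the smallest that 4 against 5 libraries allow. The same test on chromosomes 2, 3 and 4 gave differences of 0.929, 2.17 and 0.242 percentage points, with adjusted p of 0.457, 0.0847 and 0.841. Most of the chromosome 1 difference lay in a single gene. Without Dd_02558 the share was 0.773 percentage points lower in 24-44 cell than in Zygote embryos, and the adjusted p of the exact test became 0.0635. In sums of log2(CPM + 1) it was 0.170 percentage points higher, which did not pass (adjusted p = 0.444).

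Between Moving and 24-44 cell embryos the difference in the chromosome 1 share did not pass with all counts. The mean was 18.4 ± 1.61% in Moving and 17.6 ± 0.6005% in 24-44 cell embryos (SD, n = 5 each), with an adjusted p of 0.543 by the exact permutation test. The share was higher in Moving embryos by 1.82 percentage points without the 10 genes of highest mean CPM in the table (adjusted p = 0.0317) and by 3.55 per kb of gene span (adjusted p = 0.0254), both past the threshold. In the same comparison chromosome 4 fell by 7.55 percentage points to 31.1% in Moving embryos, against 38.6% in 24-44 cell embryos. Chromosome 2 was 2.69 percentage points higher (adjusted p = 0.0212 for both chromosomes, exact permutation test). Chromosome 3 was 4.04 percentage points higher, which did not pass (adjusted p = 0.0635, exact permutation test). L1 larvae had 19.01 ± 0.556% on chromosome 1 and Moving embryos 18.4 ± 1.61% (SD, n = 5 each), with an adjusted p of 0.603 by the exact test. Moving replicate 5 detected few genes in the counts used here. Without it the L1 share was 1.22 percentage points higher than the Moving share (exact permutation test, adjusted p = 0.0363).

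Over longer periods, the 20 libraries of the Comma to Moving stages averaged 17.7 ± 3.26% and the 19 libraries of the Zygote to 8-cell stages 19.8 ± 1.89% (SD). The difference of 2.08 percentage points passed the threshold (permutation test over libraries, 2-sided, adjusted p = 0.0455). It did not pass when replicate 1, 2, 3 or 4 of every stage was left out, with adjusted p between 0.0635 and 0.213. Of the later stages only Comma, at 20.95%, lay above the Zygote to 8-cell mean, with 1.5-fold at 16.4%, 2-fold at 15.2% and Moving at 18.4%. Without Dd_02558 the later share was 0.346 percentage points higher (permutation test, adjusted p = 0.778). The part of the Comma libraries in this change of sign was not tested. With the 10 genes of highest mean CPM in the table left out, the later share was 0.643 percentage points higher (adjusted p = 0.497). Of these genes Dd_02558 is the only one on chromosome 1. In sums of log2(CPM + 1) the later share was 0.748 higher and passed (adjusted p = 0.00032). Per kb of gene span the difference was -0.167 percentage points (adjusted p = 0.929).

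Dd_02558 was the most abundant gene of chromosome 1, and had the highest mean CPM of all genes in the table. It lies at 16176323 to 16178069 on the minus strand, overlaps no other annotated gene, and has no name or known function in the files. Its 4 Zygote libraries had 42488, 39242, 43593 and 30405 CPM, which is 18.5 ± 2.52% of the counts of chromosome 1 (SD, n = 4). Its mean was 43704 CPM in 2-cell, 22745 in 4-cell and 17878 in 8-cell embryos. The 24-44 cell libraries had 13050, 3267, 3199, 13841 and 4760 CPM and split into 2 high and 3 lower libraries. The mean was then 1306 CPM in 64-78 cell, 1339 in Comma, 2058 in 1.5-fold and 232 in 2-fold embryos. Moving embryos had 19.4, 53.3, 8.16, 79.7 and 118 CPM, and L1 larvae 13.02 to 86.8 CPM.

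The decline of Dd_02558 passed in both earlier comparisons and not in the last. The level was 7623 ± 5359 CPM in 24-44 cell embryos (SD, n = 5) and 38932 ± 5977 CPM in Zygote embryos (n = 4), a log2 fold change of -2.16 with an SE of 0.50 (edgeR quasi-likelihood test, adjusted p = 0.0170). It was 55.8 ± 44.9 CPM in Moving and 7623 CPM in 24-44 cell embryos, a log2 fold change of -7.11 with an SE of 0.91 (edgeR, adjusted p = 0.000478). Between L1 and Moving the log2 fold change was -0.29 with an SE of 0.83 (edgeR, adjusted p = 0.971), and these stages overlapped.

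**Figure D2:**
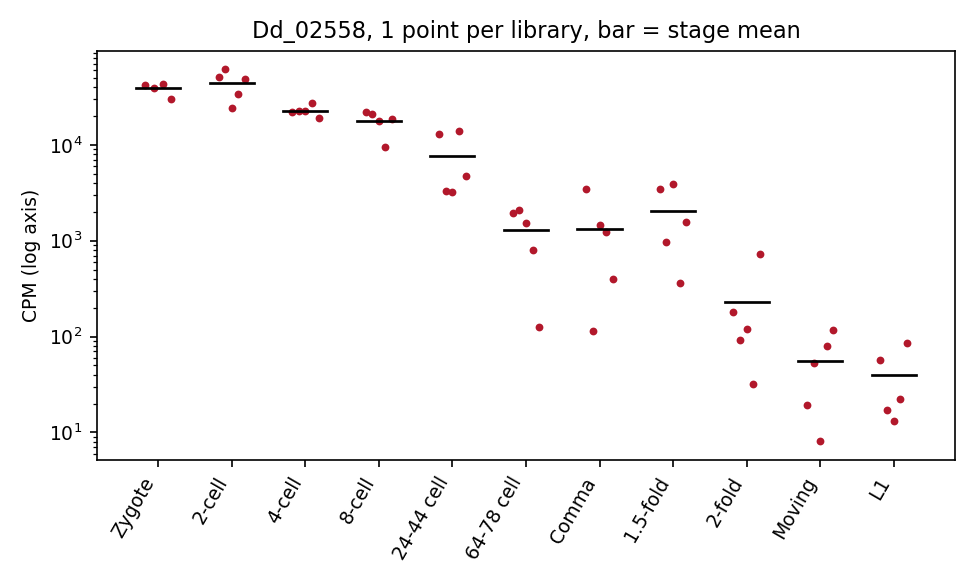
CPM of Dd_02558 (y axis, log scale) by stage (x axis, in developmental order), with 1 point per library and a black bar at the stage mean. The gene stood at 9383 CPM or more in every library through the 8-cell stage and at 118 CPM or less in every Moving and L1 library, with 3199 to 13841 CPM in 24-44 cell embryos between them.

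The next largest contributors to the counts of chromosome 1 were Dd_02473 and Dd_02384, both in bin 16. Dd_02473, at 15583478 to 15588630 on the plus strand, took 2.00% of the counts of chromosome 1 in Zygote embryos, 2.12% in Comma embryos and 0.468% in L1 larvae. Its Comma libraries ranged between 960 and 11302 CPM. Dd_02384, at 15082643 to 15089516 on the minus strand, rose to 2915 ± 2438 CPM in 24-44 cell embryos (SD, n = 5), against 597 ± 182 CPM in Zygote embryos (n = 4), with a log2 fold change of 2.44, an SE of 0.58 and an adjusted p of 0.0190 (edgeR). The lowest 24-44 cell library, at 688 CPM, lay below the highest Zygote library, at 779 CPM. It had 33.3 ± 31.0 CPM in L1 larvae (SD, n = 5), against 2303 ± 4358 CPM in Moving embryos, a difference that did not pass (edgeR, adjusted p = 0.377). The Moving libraries of Dd_02384 ranged between 0 and 10030 CPM.

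The 10 largest genes of chromosome 1 at each stage together took 27.6% of its counts in Zygote embryos, 11.2% in 1.5-fold embryos and 24.3% in L1 larvae. Dd_02558 alone took 18.5% in Zygote embryos, 1.25% in 1.5-fold embryos and 0.0209% in L1 larvae. The Zygote value thus lay mostly in this single gene, and the L1 value in others.

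Detection in the first embryos differed along the chromosome. In Zygote embryos most genes at both ends of chromosome 1 were below 1 CPM, while a larger share of the genes in between was detected. Bins 18 and 19 (17 to 19 Mb) had 8.33% and 6.25% of their genes at 1 CPM or more, and bins 1, 2, 3 and 20 had 14.3%, 13.5%, 18.4% and 17.3%. The 12 bins numbered 5 to 16 had between 39.7% and 67.4%, with bin 6 the highest. The summed level of bin 18 was 240 ± 198 CPM and that of bin 19 was 272 ± 185 CPM in Zygote embryos (SD, n = 4), against 17951 ± 1356 CPM in bin 6, which has 149 genes to the 135 and 192 of bins 18 and 19.

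**Figure D3:**
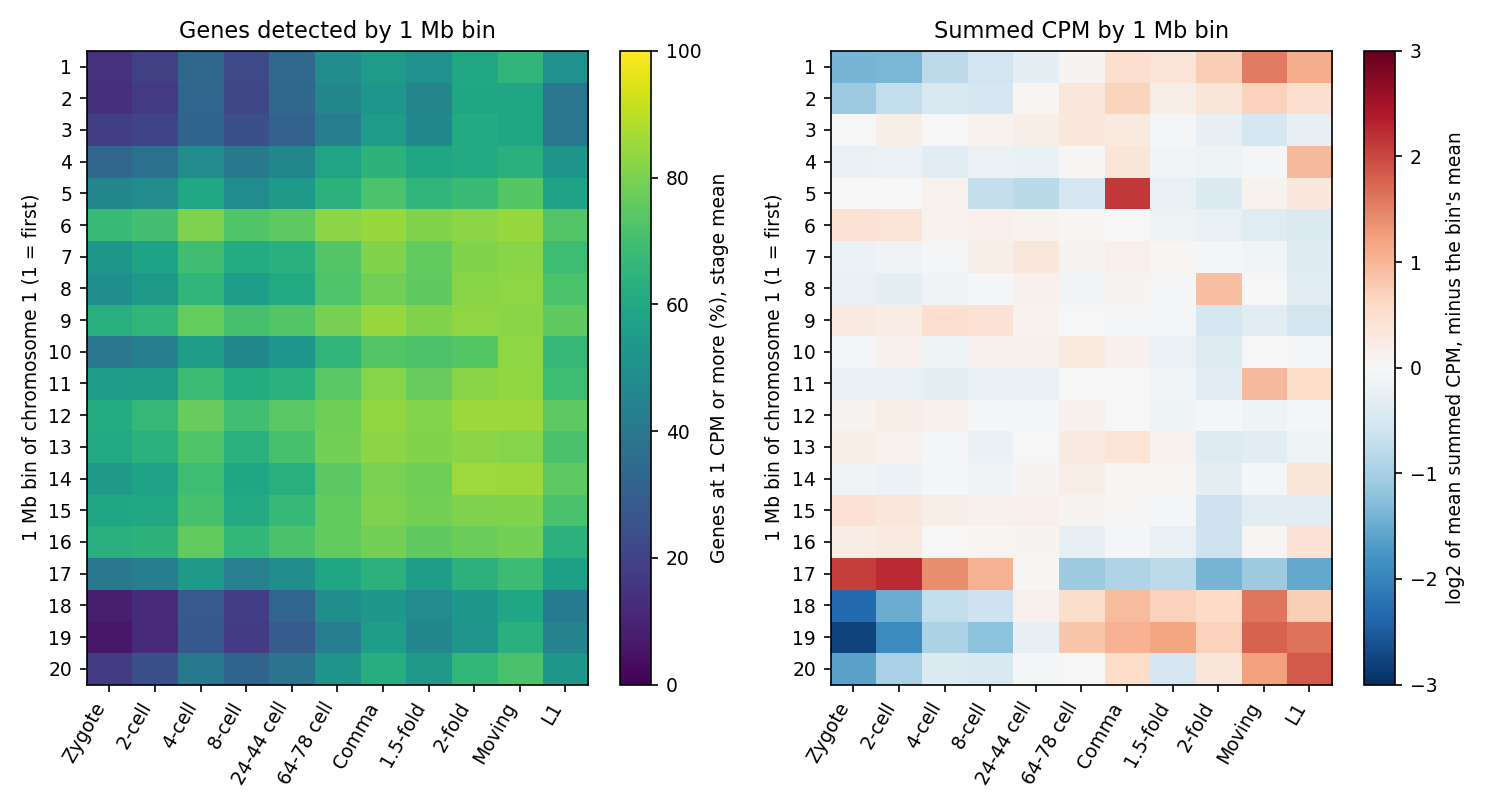
Left, mean percent of the genes of each 1 Mb bin of chromosome 1 (y axis, bin 1 at the top) at 1 CPM or more, by stage (x axis). Right, log2 of the mean summed CPM of each bin minus the mean of that bin over the 11 stages. In Zygote embryos bins 18 and 19 had 8.33% and 6.25% of their genes detected, and they were among the lowest bins of the right panel. The Comma column stands out at bin 5 and the first 4 columns at bin 17.

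Bins 1, 2 and 18 to 20 hold 771 of the 3126 genes (24.7%), and grouping them as the chromosome ends was chosen after their values were seen, so the group is described and not tested. In stage order they detected 11.7%, 16.8%, 32.3%, 22.0%, 33.3%, 47.5%, 55.9%, 48.8%, 57.8%, 63.8% and 46.1% of their genes. Bins 3 to 17 detected 51.1%, 54.0%, 65.3%, 56.6%, 61.3%, 70.6%, 76.6%, 72.6%, 76.9%, 78.5% and 66.1%. The gap between the ends and the rest was thus widest in the Zygote and smallest in Moving embryos. The share of the counts of chromosome 1 that came from the ends was 1.32% to 2.42% in the 4 Zygote libraries and 13.6% to 18.5% in the 5 Moving libraries. Genes at the ends were slightly shorter, with a median span of 2891 bp, against 3262 bp in bins 3 to 17.

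The ends of the other chromosomes also detected fewer genes in Zygote embryos than a part nearer the middle, to an extent that varied between them. When each chromosome was cut into 10 equal parts, the first and last part of chromosome 1 detected 13.99% and 10.9% of their genes in Zygote embryos. The corresponding values were 16.4% and 31.3% on chromosome 2, 24.4% and 21.2% on chromosome 3, and 33.5% and 16.8% on chromosome 4. The fifth part of chromosome 1 detected 53.6%, against 49.9%, 49.5% and 38.7% on chromosomes 2, 3 and 4. These differences between chromosomes were not tested.

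The stage at which a gene was most abundant also varied along the chromosome. Among the 2378 genes that reached 10 CPM at some stage, the share with their highest mean in Zygote to 8-cell embryos was between 4.27% and 6.48% in bins 18 to 20, and 8.79% and 12.3% in bins 1 and 2. In bins 3 to 17 it was between 12.5% (bin 3) and 37.5% (bin 6). The share with their highest mean in 2-fold embryos, Moving embryos or L1 larvae was 54.9% in bin 1 and 50.7% to 56.4% in bins 18 to 20, but 37.0% in bin 2. In bins 3 to 17 it was between 22.7% (bin 6) and 49.5% (bin 17), so bin 2 lay within the range of the inner bins.

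Chromosome 1 as a whole had fewer of its genes at 1 CPM or more than the other 3 chromosomes. In stage order the mean was 41.3%, 44.8%, 57.1%, 48.1%, 54.4%, 64.9%, 71.5%, 66.7%, 72.2%, 74.9% and 61.2%. The percent on chromosome 1 was below that over the other 3 in 53 of the 54 libraries, and the lowest of the 4 chromosomes in 51, with a median difference of -5.19 percentage points. With every library thinned to 300110 counts, it was again lower in 53 of 54 libraries.

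More genes of chromosome 1 were detected in 24-44 cell than in Zygote embryos. The mean was 54.4 ± 4.76% in 24-44 cell embryos (SD, n = 5) and 41.3 ± 1.86% in Zygote embryos (n = 4), and the stages did not overlap (exact permutation test, 2-sided, adjusted p = 0.0159 over 4 comparisons). The other 3 chromosomes moved by 12.9 percentage points in this comparison, and chromosome 1 by 13.1. Moving embryos detected 74.9 ± 14.6%, against 54.4 ± 4.76% in 24-44 cell embryos, which did not pass (adjusted p = 0.0529, exact test). Moving replicate 5 was at 49.4% and the other Moving libraries at 76.6% to 85.2%. In the study's own tally of genes detected, on another scale of expression, that library was also the lowest of the Moving stage, but close to the next. It also had the lowest alignment rate of the Moving libraries. The reason for the mismatch between the tallies was not tested. Without that library the adjusted p was 0.0106, and 20.5 percentage points became 26.8. With detection set at 10 CPM the difference was 13.7 percentage points (adjusted p = 0.0212). L1 larvae detected 61.2 ± 6.94%, against 74.9 ± 14.6% in Moving embryos (SD, n = 5 each, adjusted p = 0.103, exact test). The difference of L1 to Moving was -13.7 percentage points with all libraries and -20.0 without Moving replicate 5 (adjusted p = 0.0106), and -9.95 at 10 CPM (adjusted p = 0.0397). In the 20 libraries of the Comma to Moving stages 71.3% were detected, against 48.2% in the 19 libraries of the Zygote to 8-cell stages (permutation test, p = 1e-05, the smallest these permutations can give, adjusted p = 4e-05).

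Summed counts per bin placed the largest rises at the ends. In the comparison of 24-44 cell with Zygote embryos, 6 of the 20 bins of chromosome 1 were higher and 5 were lower (edgeR quasi-likelihood test, adjusted p below 0.05 over 106 bins). Over all 106 bins of the 4 chromosomes, 23.6% were higher and 20.8% lower. The 6 higher bins were 1, 2, 7, 18, 19 and 20, that is all 5 end bins and 1 other. The ends were grouped after their values were seen, so this count is a description and does not test the ends. Bin 3, with 18.4% of its genes detected in Zygote embryos, was not among the higher bins. It had 2622 CPM in Zygote and 2926 CPM in 24-44 cell embryos. On the scale of the mean log2(CPM + 1) of the genes in a bin, tested with limma, 14 bins were higher and 0 lower. With the mean of each library over all genes taken off, 5 were higher and 3 lower.

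Bins 19 and 18 had the largest rises of all 106 bins. Bin 19 had 1026, 2270, 2011, 1090 and 1381 CPM in 24-44 cell libraries, against 124, 125, 329 and 508 CPM in Zygote libraries, with a log2 fold change of 2.44 and an SE of 0.48 (edgeR, adjusted p = 0.00123). Bin 18 had 795, 1746, 1645, 875 and 1579 CPM in 24-44 cell libraries, against 51.6, 91.5, 370 and 448 CPM in Zygote libraries, with a log2 fold change of 2.38 and an SE of 0.59 (adjusted p = 0.00468). In neither bin did the stages overlap. Bin 20 was also higher, at 3493 ± 727 CPM in 24-44 cell and 1204 ± 335 CPM in Zygote embryos (SD), with a log2 fold change of 1.45 (edgeR, adjusted p = 0.000412).

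Next to these bins, bin 17 fell the most of all 106 bins. It had 16762, 6588, 6077, 17365 and 7264 CPM in 24-44 cell libraries, against 47531, 44903, 49278 and 35633 CPM in Zygote libraries, with a log2 fold change of -2.12 and an SE of 0.31 (edgeR, adjusted p = 0.000147). Dd_02558 lies in this bin and made up 87.8% of its Zygote counts. Without the 10 genes of highest mean CPM the log2 fold change of bin 17 was -0.81, still past the threshold (adjusted p = 0.000483), whereas the mean log2(CPM + 1) of its genes was 0.11 higher in 24-44 cell embryos and did not pass (limma, adjusted p = 0.484). Bin 5 fell to 4617 ± 682 CPM in 24-44 cell embryos, against 8040 ± 1207 CPM in Zygote embryos (SD, log2 fold change -0.89, edgeR, adjusted p = 0.00014). Bin 6 fell by 0.40 on the log2 scale (adjusted p = 0.00399), but the mean log2(CPM + 1) of its genes was 0.17 higher, which did not pass. Over all genes of chromosome 1 this mean rose from 2.31 in Zygote to 2.74 in 24-44 cell embryos.

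In the comparison of Moving with 24-44 cell embryos, 7 of the 20 bins were higher and 4 lower, where 31.1% of all 106 bins were higher and 27.4% lower. All 5 end bins, grouped after their values were seen, were again among the higher ones, with bins 5 and 11. The mean log2(CPM + 1) of the genes was higher in 13 bins and lower in 0 (limma), and with each library's mean over all genes taken off it was higher in 6 and lower in 5. Bin 19 had 2735, 3825, 6654, 13195 and 5403 CPM in Moving libraries, all above its 24-44 cell libraries, with a log2 fold change of 2.18 and an SE of 0.43 (edgeR, adjusted p = 0.00149). Bin 1 had 10063, 11755, 8168, 6500 and 9140 CPM in Moving libraries, against 1871, 3374, 3409, 1827 and 2392 CPM in 24-44 cell libraries, with a log2 fold change of 1.94 and an SE of 0.22 (adjusted p = 6.07e-05). Bin 18 had 3687 ± 1809 CPM in Moving and 1328 ± 455 CPM in 24-44 cell embryos (SD, n = 5 each), with a log2 fold change of 1.57 (edgeR, adjusted p = 0.00252).

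Of the bins that passed, the largest falls in Moving embryos were in bins 17, 6 and 15, with log2 fold changes of -1.02, -0.40 and -0.39 (edgeR, adjusted p of 0.0185, 0.0275 and 0.0110). Bin 3 had a log2 fold change of -0.60 and missed the threshold (adjusted p = 0.050044). Without the 10 genes of highest mean CPM, bin 17 was higher in Moving embryos, with a log2 fold change of 0.66 (edgeR, adjusted p = 0.00502). Without 24-44 cell replicate 1 or replicate 4, the 2 libraries with most Dd_02558, the fall of bin 17 did not pass (adjusted p of 0.0539 and 0.0550). The falls of bins 6 and 15 depended on the scale. On the mean log2(CPM + 1) of their genes they were 0.10 and 0.46 higher in Moving embryos, and neither difference passed with limma. Over all genes of chromosome 1 this mean rose from 2.74 in 24-44 cell to 3.54 in Moving embryos. With each library's mean over all genes taken off, neither bin reversed. The fall of bin 6 did not pass in 6 of the 10 fits that left out 1 library.

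Most of the counts of bin 11 in Moving embryos came from a single gene, which was singled out after its values were seen. Dd_01651, at 10731263 to 10734796 on the minus strand, had 23662, 11294, 10030, 8904 and 12080 CPM in Moving libraries, against 0.561, 21.1, 17.8, 1.35 and 0.842 CPM in 24-44 cell libraries (edgeR log2 fold change 10.70, SE 1.31, adjusted p = 0.00039). It took 61.5% of the counts of bin 11 in Moving embryos, and was at 58.4 CPM or less in every library before the Moving stage. L1 larvae had 613 to 11938 CPM.

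Between L1 larvae and Moving embryos 1 of the 20 bins passed, where 2.83% of all 106 bins were higher and 0.943% lower. Without Moving replicate 5 there were 4, and without Moving replicate 1 there were 2. Bin 4 had 12478, 10814, 15612, 10350 and 12537 CPM in L1 libraries, against 5616, 5532, 6348, 4038 and 8638 CPM in Moving libraries, with a log2 fold change of 1.10 and an SE of 0.18 (edgeR, adjusted p = 0.00511). The stages did not overlap. The mean log2(CPM + 1) of the genes of bin 4 was 0.23 lower in L1 larvae, which did not pass (limma, adjusted p = 0.408). Over all genes of chromosome 1 this mean fell from 3.54 in Moving embryos to 2.96 in L1 larvae. Among the genes that passed the filter, the median log2 fold change was 0.02 in bin 4 and -0.22 on chromosome 1.

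**Figure D4:**
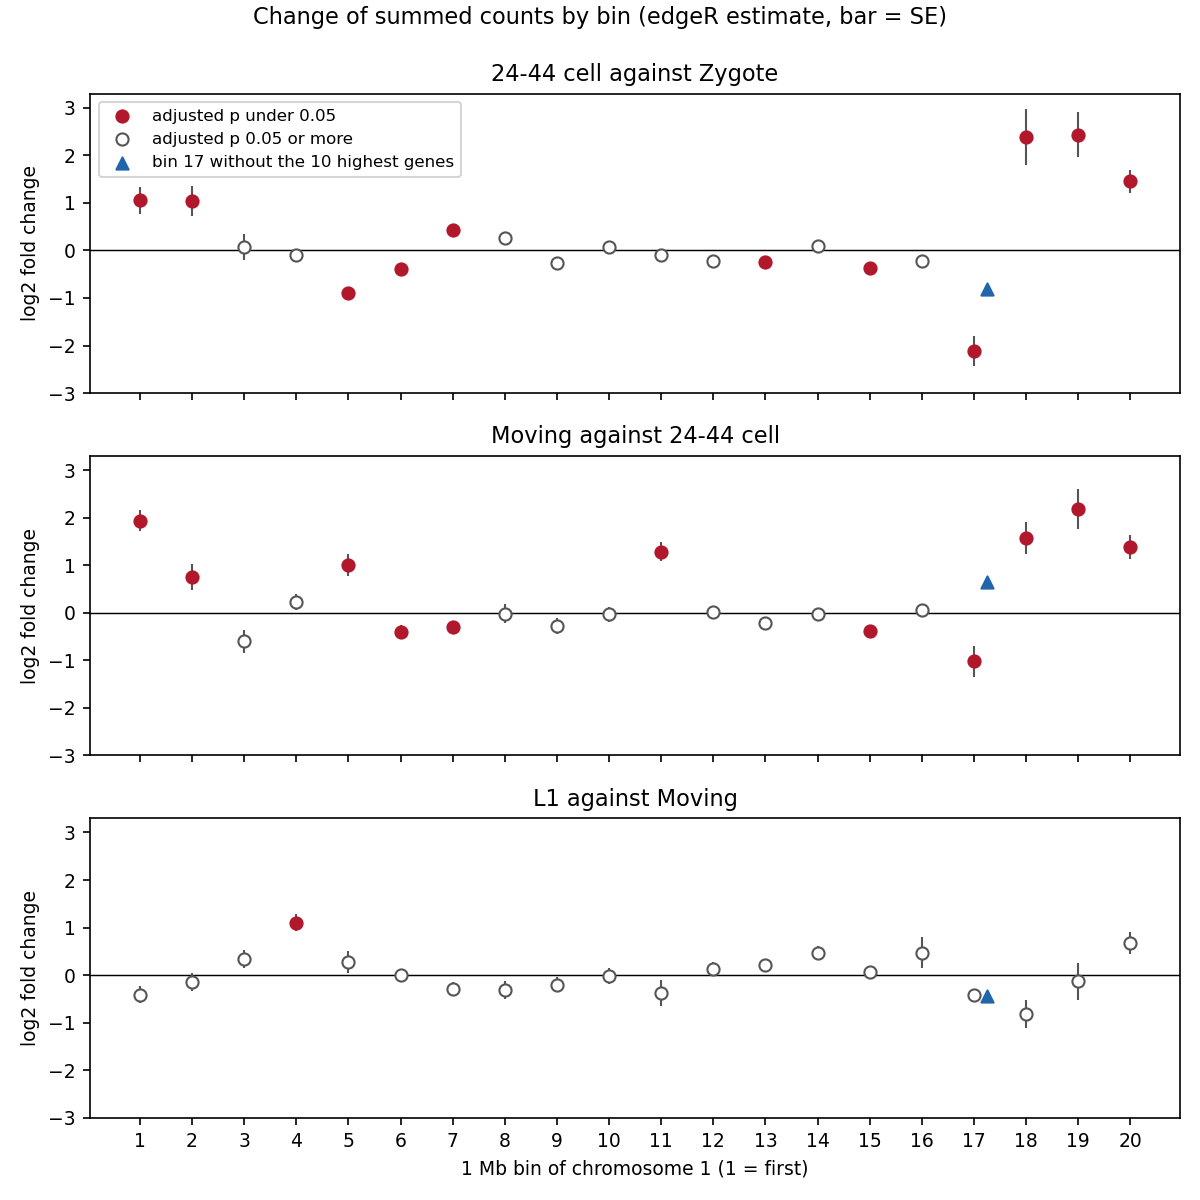
Log2 fold change of the summed counts of each 1 Mb bin of chromosome 1 (y axis) by bin number (x axis), later over earlier stage, from edgeR with bars for the SE. Red points passed an adjusted p of 0.05 and open points did not. Blue triangles give bin 17 without the 10 genes of highest mean CPM, where it moved to -0.81 in 24-44 cell against Zygote embryos and to 0.66 in Moving against 24-44 cell embryos. The end bins 1, 2 and 18 to 20, grouped after their values were seen, were higher in both of these comparisons.

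The share of the counts taken by the middle of the chromosome was compared as well. Chromosome 1 was cut into 3 equal parts, of which the middle one (6555232 to 13109523) holds 1015 genes. It took 40.8 ± 1.40% of the counts of chromosome 1 in 24-44 cell embryos (SD, n = 5) and 33.8 ± 1.03% in Zygote embryos (n = 4), without overlap (exact permutation test, adjusted p = 0.0159). Without Dd_02558, which is in the last part, the difference of 6.95 percentage points became 1.09 (adjusted p = 0.468). In sums of log2(CPM + 1), in which no gene dominates, the middle part was 2.76 percentage points lower in 24-44 cell embryos (adjusted p = 0.0212). Moving embryos had 40.9% and 24-44 cell embryos 40.8% (adjusted p = 0.937), but in sums of log2(CPM + 1) the middle part was 2.26 percentage points lower in Moving embryos (adjusted p = 0.0212). L1 larvae had 34.9 ± 2.07%, against 40.9 ± 3.63% in Moving embryos (SD, n = 5 each, exact test, adjusted p = 0.0212). This difference lost its call without L1 replicate 2, at -5.51 percentage points (adjusted p = 0.0529). It also lost its call without Dd_02558 (-6.08, adjusted p = 0.0635) and per kb of gene span (-6.17, adjusted p = 0.212), and in sums of log2(CPM + 1) it was 0.677 percentage points higher in L1 larvae (adjusted p = 0.167). For the longer periods, the Comma to Moving libraries had 41.0% and the Zygote to 8-cell libraries 36.4% (permutation test, adjusted p = 0.00772), which became a difference of -1.49 percentage points without Dd_02558 (adjusted p = 0.468) and of -3.31 in sums of log2(CPM + 1) (adjusted p = 4e-05).

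At the level of single genes, the shares called on chromosome 1 lay near those of all genes. Of the 1596 genes of chromosome 1 that could be tested between 24-44 cell and Zygote embryos, 187 (11.7%) were higher and 52 (3.26%) lower in 24-44 cell embryos. Over all 8969 genes tested 10.4% were higher and 2.63% lower. The 239 calls became 122 without 24-44 cell replicate 3, 136 without 24-44 cell replicate 2, 149 without Zygote replicate 3 and 158 without 24-44 cell replicate 5. With all libraries in 1 fit 421 were higher and 26 lower, and with DESeq2 395 were higher and 121 lower. The median log2 fold change was 0.36 on chromosome 1 and 0.33 over all genes tested. Only 176 of the 771 genes at the chromosome ends passed the filter on low counts in this comparison, and of these 50 were higher and 1 lower. A gene silent in Zygote embryos passes the filter only through the later stage, so these counts do not describe all genes of the ends. In bins 3 to 17, 137 of 1420 tested genes were higher and 51 lower.

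Of the genes of chromosome 1 that were higher in 24-44 cell embryos, Dd_00292 and Dd_02316 had the largest changes by the rule used. Dd_00292, at 1772555 to 1773914 in bin 2, had 99.8, 34.6, 250 and 211 CPM in 4 of the 24-44 cell libraries and 893 CPM in replicate 5, against 0 counts in all 4 Zygote libraries. With a floor of 3 counts over the Zygote libraries it was at least 1798-fold higher (edgeR, adjusted p = 0.00191), or at least 899-fold without 24-44 cell replicate 5. It had fallen back to a mean of 8.39 CPM in 64-78 cell embryos. Dd_02316, at 14715487 to 14718429 in bin 15, had 28.7, 121, 84.4, 94.1 and 301 CPM in 24-44 cell libraries, against 0 counts in the Zygote, and was at least 760.5-fold higher (edgeR, adjusted p = 0.00131), or at least 496-fold without 24-44 cell replicate 5. Its mean stayed at 122 CPM in 64-78 cell, 89.2 in Comma and 63.1 in 1.5-fold embryos, and was 24.8 CPM in Moving embryos.

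The largest falls were those of Dd_01970 and Dd_02096. Dd_01970, at 12730923 to 12731751 in bin 13, had 1 count in the 5 libraries of 24-44 cell embryos together, against 260, 510, 342 and 670 CPM in the Zygote libraries (edgeR, adjusted p = 5.04e-06). The pooled Zygote level was 15353 times the 24-44 cell level, with an exact 95% counting interval of 2755 to 606475. This interval treats reads as independent and leaves out the spread between embryos. Without 24-44 cell replicate 1, which held that count, the 24-44 cell level was at least 4213-fold lower. Dd_01970 was at 311 ± 172 CPM in 2-cell, 0.893 ± 1.40 CPM in 4-cell and 40.3 ± 90.1 CPM in 8-cell embryos (SD, n = 5 each). Its mean was 8.89 CPM in Comma and 13.9 CPM in Moving embryos. Dd_02096, at 13489912 to 13492412 in bin 14, had 0.214 ± 0.293 CPM in 24-44 cell embryos (SD, n = 5) and 40.8 ± 29.2 CPM in Zygote embryos (n = 4), with a log2 fold change of -7.32 and an SE of 1.67 (edgeR, adjusted p = 0.0165). It returned to 32.1 ± 24.7 CPM in Comma embryos, and without Zygote replicate 1 its fall did not pass (adjusted p = 0.0546).

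Between Moving and 24-44 cell embryos, 290 of 2107 tested genes of chromosome 1 (13.8%) were higher and 192 (9.11%) lower in Moving embryos, against 12.1% and 8.4% of all 11362 genes tested. The median log2 fold change was 0.50 on chromosome 1 and 0.44 over all genes. Moving replicate 5 bore on this count, since 783 genes of chromosome 1 passed without it, against 482 with it. With no filter 822 passed, with all libraries in 1 fit 954, and with DESeq2 1095. Only 351 of the 771 genes at the chromosome ends, which were grouped after their values were seen, passed the filter. Of these 60 were higher and 15 lower, and in bins 3 to 17 it was 230 and 177 of 1756. A gene silent in 24-44 cell embryos passes the filter only through the Moving stage, so these counts do not describe all genes of the ends.

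The largest rises in Moving embryos were those of Dd_01163 and Dd_02432. Dd_01163, at 7522577 to 7523605 in bin 8, had 324, 119, 104, 13.4 and 1037 CPM in Moving libraries and 0 counts in all 5 libraries of 24-44 cell embryos, and was at least 3779-fold higher (edgeR, adjusted p = 0.0011), or at least 1657-fold without Moving replicate 5. Its mean was 6.72 CPM or less at every stage before Moving and 301 ± 81.4 CPM in L1 larvae (SD, n = 5). Dd_02432, at 15332024 to 15332587 in bin 16, had 772, 1428, 2159, 5.66 and 229 CPM in Moving libraries and 2 counts in the 24-44 cell libraries together (edgeR, adjusted p = 0.000478). Its pooled Moving level was 15783 times the 24-44 cell level (exact 95% counting interval 4369 to 130335, which leaves out the spread between embryos). Without 24-44 cell replicate 2, which held both counts, it was at least 9058-fold higher. L1 larvae had 1116 ± 664 CPM (SD, n = 5). Dd_02432 overlaps 1 annotated gene on the other strand, and the reads of the pair cannot be told apart because the protocol does not mark strand.

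Dd_00566, at 3637550 to 3641348 in bin 4, and Dd_02558, described above, fell the most in Moving embryos. Dd_00566 had 1.63, 0.176, 0.480, 0 and 0 CPM in Moving libraries, against 120, 138, 104, 66.2 and 101 CPM in 24-44 cell libraries, with a log2 fold change of -7.71 and an SE of 1.16 (edgeR, adjusted p = 0.0011). Its mean was between 18.3 and 106 CPM at every stage through Comma and 5.36 CPM in 1.5-fold embryos, so its low level preceded the Moving stage.

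Between L1 and Moving, 0 of the 2302 tested genes of chromosome 1 passed in edgeR, as did 0.0% of all 12250 genes. At an unadjusted p below 0.05, 98 genes of chromosome 1 were higher and 82 lower in L1 larvae. DESeq2 called 91 (10 higher and 81 lower), and edgeR fitted over all 54 libraries called 38. Without Moving replicate 5, 3 genes of chromosome 1 passed.

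Much of the spread between Comma libraries, but not all of it, came from 1 short stretch of the chromosome. Bin 5 (4 to 5 Mb) had 4857, 9078, 15364, 63415 and 83706 CPM in the 5 Comma libraries, which is 2.97%, 5.48%, 7.32%, 27.0% and 30.7% of their chromosome 1 counts, and means of 4617 to 10063 CPM at the other 10 stages. Much of this lay in 7 genes between 4073463 and 4923464, an interval of 850 kb that holds 129 genes in all. The 7 were singled out after their values were seen. Dd_00769 (4922822 to 4923464, plus strand) had 96.7, 248, 2251, 20853 and 26500 CPM in the Comma libraries, and Dd_00716 (4603516 to 4605344, plus strand) had 75.3, 140, 1780, 14233 and 11558 CPM. The other 5 genes have starts at 4073463, 4331653, 4333115, 4510054 and 4674294. The genes starting at 4331653, 4510054 and 4674294 have the same span of 531 bp, and if they are near-identical copies the counting may have split or dropped their reads.

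Summed over the 7 genes the Comma libraries had 404, 1777, 10229, 56715 and 76438 CPM. The median over the 49 libraries of the other stages was 122 CPM, and the highest of these was 4-cell replicate 1, with 12864 CPM. Without the 7 genes the chromosome 1 share of the 5 Comma libraries was 16.3%, 16.4%, 20.2%, 18.9% and 21.3%. A spread between 16.3% and 21.3% thus remained, and the share of Comma replicate 3, at 20.99% with the 7 genes, changed little.

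The 7 genes had been picked as a group that varied together, so their correlations describe that choice. Over all 54 libraries and the 14490 genes that reached 10 CPM in some library, the 6 genes whose log2(CPM + 1) correlated best with that of Dd_00769 were the other 6, with Pearson r between 0.874 and 0.947. The next gene, which also lies on chromosome 1, at 3992995 to 3996441, had an r of 0.761. Without the Comma libraries the r of the 6 genes was between 0.841 and 0.925. These values are a description over libraries that share stages and depth, with no test. Their relation to embryo handling, exact age or alignment rate was not tested.

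**Figure D5:**
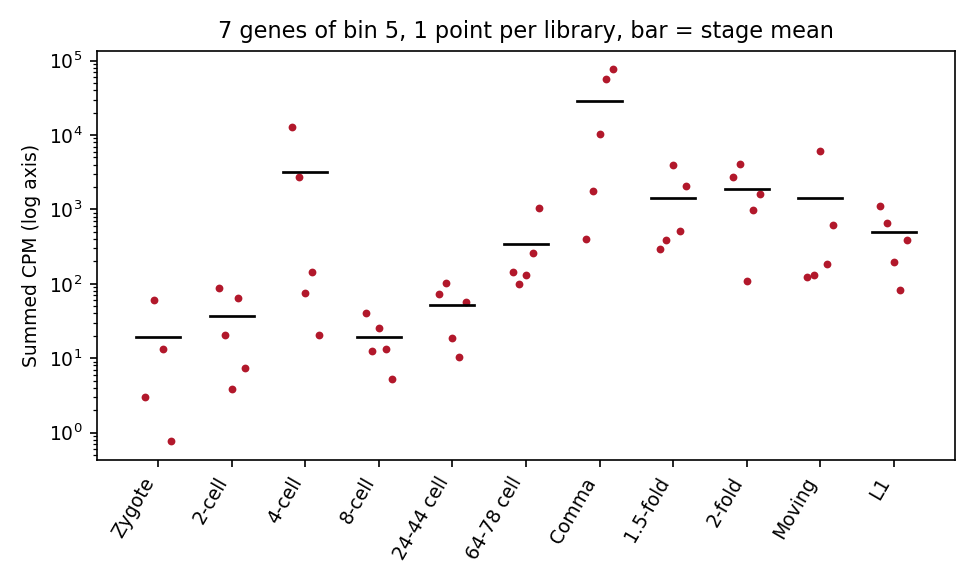
Summed CPM of the 7 genes of bin 5 (y axis, log scale) by stage (x axis, in developmental order), with 1 point per library and a black bar at the stage mean. The Comma libraries ranged between 404 and 76438 CPM, and 4-cell replicate 1, at 12864 CPM, stood above the other 48 libraries outside the Comma stage.

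Along the whole of chromosome 1, the levels of neighbouring genes were weakly alike. Among genes that reached 10 CPM at some stage, the median Pearson r of adjacent genes over the 54 libraries was 0.221 on chromosome 1, against 0.180 to 0.187 on the other 3 chromosomes. On chromosome 1 it was 0.158 for genes 2 places apart and 0.0967 for genes 100 places apart. Adjacent genes on the same strand had a median r of 0.224 and those on opposite strands 0.218. These correlations share libraries and depth and are given as a description.

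Of the 2378 genes of chromosome 1 that reached 10 CPM at some stage, 453 (19.05%) had their highest mean in Moving embryos, 414 (17.4%) in Comma embryos, 267 (11.2%) in L1 larvae and 206 (8.66%) in Zygote embryos. The Comma share was 9.01% on chromosome 2, 8.86% on chromosome 3 and 21.2% on chromosome 4. Comma replicate 5, in which chromosomes 2 and 3 had their lowest share of counts (13.2% and 10.5%) and chromosome 4 its highest (49.0%), contributed to these means, and its part in them was not tested.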

How the data were processed

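Single embryos were sequenced with Smart-seq2, which does not mark strand. The deposited values are whole-number counts of reads per gene without normalization. To make them the authors used fastp (version 0.20.1) for trimming, HISAT2 for alignment and HTSeq for counting. Tables of other species were not used here.

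CPM was computed here from each library's total. Genes were placed by the chromosome and start in the table, in 1 Mb bins with at least 5 genes. edgeR (version 4.0.16, R version 4.3.3) was fitted to the 2 stages compared, with TMM factors, filterByExpr, the quasi-likelihood test and Benjamini-Hochberg adjustment over all genes or bins tested, at a threshold of 0.05. Shares and percents detected were compared with 2-sided permutation tests over libraries, exact between stages and with 100000 permutations between periods, where stages within a period were not kept together. The scripts were tested on simulated data.

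The genes named per comparison were at most 2 that rose and 2 that fell. They had the largest fold of those past the threshold whose libraries did not overlap and whose higher stage averaged 10 CPM or more. The 3 genes with the largest share of the chromosome's counts were also named, and the called bins, or the 3 largest rises and falls. The genes, bins and lists were chosen with earlier results of these data known.

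In alignment rates tabulated by the study each 24-44 cell library aligned better than each Zygote library, so stage and alignment rate cannot be told apart there. Alternatives were RLE factors, no filter, DESeq2 (version 1.42.0), limma (version 3.58.1), all libraries in 1 fit, the replicate number as a block, bins of 0.5 and 2 Mb, other sums over genes, detection at 10 CPM and the omission of each library. Those without Dd_02558 and with centred log values, and the fold bounds with a library left out, were added after seeing the data.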

Additional observations from a re-analysis of the deposited data

Results flagged for a closer look

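Dixon's ratio was computed in 101 groups of 4 or 5 libraries, where chance marks about 1 in 20, and 8 groups held a library far from the others. 2-fold replicate 1 had 17.4% of its counts on chromosome 1, and the other 2-fold libraries 14.2% to 14.9%. Moving replicate 5 detected 49.4% of the genes of chromosome 1, and the other Moving libraries 76.6% to 85.2%. The same library had 14925 CPM in bin 6, against 8411 to 9838 CPM in the others. 2-fold replicate 5 had 731 CPM of Dd_02558, against 32.0 to 183 CPM. Moving replicate 4 had 10030 CPM of Dd_02384, against 0 to 1366 CPM. 24-44 cell replicate 5 had 893 CPM of Dd_00292, against 34.6 to 250 CPM. A single count of Dd_01970 in 24-44 cell replicate 1 (0.140 CPM) and 2 counts of Dd_02432 in 24-44 cell replicate 2 (0.338 CPM) also stood out, since the other 4 libraries had none.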

How the results depend on the processing

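Differences in shares and percents are in percentage points, later minus earlier stage. Without the 10 genes of highest mean CPM, the chromosome 1 share differed by -0.499 between 24-44 cell and Zygote embryos, by 1.82 between Moving and 24-44 cell embryos (now past the threshold) and by 0.643 between the late and early periods (reversed). Without Dd_02558 alone the first and last of these were -0.773 and 0.346. With either omission the share of the middle part of the chromosome differed by 1.09 for 24-44 cell against Zygote, -1.69 for Moving against 24-44 cell, -6.08 for L1 against Moving and -1.49 between periods, and none passed. Per kb of gene span, the chromosome 1 share differed by 3.55 for Moving against 24-44 cell (past the threshold) and by -0.167 between periods, and the middle part by -6.17 for L1 against Moving, neither of which passed. In sums of log2(CPM + 1) the chromosome 1 share reversed to 0.170 for 24-44 cell against Zygote, -0.176 for L1 against Moving and 0.748 between periods. The middle part reversed to -2.76, -2.26 and 0.677 in the 3 comparisons of stages in order and to -3.31 between periods. At 10 CPM, genes detected differed by 13.7 for Moving against 24-44 cell and by -9.95 for L1 against Moving, both past the threshold.

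Genes called on chromosome 1 between 24-44 cell and Zygote embryos were 239 (187 higher, 52 lower), against 447 (421 higher, 26 lower) with all libraries in 1 fit and 516 (395 higher, 121 lower) with DESeq2. Between Moving and 24-44 cell embryos they were 482, against 822 with no filter, 954 with all libraries and 1095 with DESeq2. Between L1 and Moving they were 0, against 38 with all libraries and 91 with DESeq2. Bins of 0.5 Mb gave 19, 26 and 3 calls and bins of 2 Mb 6, 6 and 2 calls in the 3 comparisons, and limma gave 0 bins for L1 against Moving, centred or not. On mean log2(CPM + 1) with limma, bins 17 and 6 reversed to 0.11 and 0.17 for 24-44 cell against Zygote, bins 17, 6 and 15 to 0.82, 0.10 and 0.46 for Moving against 24-44 cell, and bin 4 to -0.23 for L1 against Moving. Bin 17 in Moving against 24-44 cell also reversed to 0.083 with centred values and to 0.66 without the 10 genes. The cause of these differences was not tested beyond what the omitted genes show.

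With the replicate number as a block, 45 genes of chromosome 1 were called between 24-44 cell and Zygote embryos, 361 between Moving and 24-44 cell embryos, and 0 between L1 and Moving. Same-numbered libraries did not deviate together, with correlations between -0.0176 and 0.0283, so the numbers do not pair the embryos.

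With 1 library left out, or 1 replicate number for the periods, the chromosome 1 share differed by -3.58 to -3.18, 0.183 to 1.28, 0.124 to 1.22 and -2.57 to -1.65 in the 3 comparisons of stages and the periods. The middle part differed by 6.48 to 7.51, -1.06 to 1.06, -6.97 to -4.84 and 3.68 to 5.33. It reversed for Moving against 24-44 cell without Moving replicate 1 (-1.06), Moving replicate 4 (-0.487) or 24-44 cell replicate 3 (-0.390). Genes detected differed by 11.2 to 14.4, 17.9 to 26.8, -20.0 to -11.0 and 21.4 to 26.4. Genes called numbered 122 to 202, 363 to 783 and 0 to 3, and bins called 10 to 13, 8 to 12 and 1 to 4. The lowest gene count, 122, came without 24-44 cell replicate 3, and 136 came without 24-44 cell replicate 2. The counts of 783 and 3 genes and 4 bins came without Moving replicate 5. With a 24-44 cell library left out, 4 against 4 libraries could not pass for the chromosome 1 share and genes detected.

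The lowest total of 300110 counts limits detection of genes near 1 CPM in the shallowest library. Gene names, functions and sequences were not used here, and libraries were single embryos kept from a larger number. P-values between stages thus describe the spread between the kept embryos. Those between periods mix that spread with differences between the stages of a period.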
